A study of Mus musculus with 5 samples.

Results

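The MHC class II presentation genes are H2-Aa, H2-Ab1, H2-Eb1, Cd74, H2-DMa, H2-DMb1 and Ciita, 7 of the 17902 gene symbols listed in any of 5 droplet single-cell RNA libraries of mouse cardiac interstitial cells. The members were chosen by name, with their measured levels per cell class in these libraries already known, and the cell classes were selected on the values of Npr3, Cdh5, Prox1, Pdgfra, C1qa and Xcr1. Levels and ratios of the members are therefore given as a description. All 7 were listed in each of the 5 tables. Hearts were digested with collagenase II, cardiomyocytes were removed, and the remaining cells were sorted by surface protein into cKit+/DDR2+/CD45+ (1 library), cKit+/DDR2+/CD45- (1 library), cKit+/DDR2- (2 libraries, replicates 1 and 2) and cKit-/DDR2+ (1 library). Strain, age, sex, treatment and the number of hearts behind a library are not given in the labels. With 1 library in 3 of the 4 sorts no comparison of sorts has a test. Counts here are unique molecular identifiers (UMIs), given as CPM (UMIs of a gene per 1000000 UMIs) summed over the cells of a class, with 95% Poisson intervals that cover counting error only.

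Class II molecules present peptides from internalised protein to CD4+ T cells. H2-Aa and H2-Ab1 encode the alpha and beta chains of the I-A molecule, and H2-Eb1 encodes the beta chain of I-E. Cd74 encodes the invariant chain, which occupies the peptide groove during assembly. H2-DMa and H2-DMb1 encode the subunits of the DM exchange factor, which loads peptide. Ciita encodes the class II transactivator, which is recruited to a shared promoter module of X and Y boxes by the RFX and NF-Y factors. Dendritic cells and macrophages express these genes constitutively, and endothelial cells can be induced to do so by interferon gamma through Ciita.

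Of the 7 members, 4 had a promoter in the RefSeq table used (GRCm38.p6, 250 bases before to 50 bases after the start of transcription), with 5 promoters in all because H2-DMa had 2. The stretches below are shown because the X and Y boxes are the module through which Ciita acts on the other members. Letters in capitals are matches to the X box (AGNNACNGA) or the Y box (GATTGG) on either strand, and the rest is in lower case.
H2-Eb1, chr17:34305760-34305852, plus strand: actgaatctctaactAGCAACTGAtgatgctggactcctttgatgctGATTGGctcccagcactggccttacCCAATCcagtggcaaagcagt
H2-DMb1, chr17:34153013-34153149, plus strand: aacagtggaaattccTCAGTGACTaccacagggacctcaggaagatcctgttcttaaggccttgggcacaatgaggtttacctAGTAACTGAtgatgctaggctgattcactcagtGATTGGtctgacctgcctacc
H2-Aa, chr17:34287852-34287887, minus strand: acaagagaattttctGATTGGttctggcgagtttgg
The H2-Eb1 window held an X box at -92 and a Y box at -60, with 23 bases between them. The H2-DMb1 window held them at -95 and -62, with 24 bases between them, and a further reverse X box at -163. H2-Aa matched the Y box at -49, and the second H2-DMa promoter matched it at -199. The X box letters occurred in 14.7% of 32851 promoters of the same length, the Y box letters in 14.6%, and an X box followed within 40 bases by a Y box in 0.170%. A match is a description of the letters and not a binding site.

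The libraries held 436 to 3898 cells with median depths of 7529 to 10972 UMIs per cell. Of the barcodes, 190 stood in both cKit+/DDR2- replicate 1 and cKit+/DDR2+/CD45+ (43.6% of the barcodes of replicate 1), while other pairs of libraries shared 1 to 3. In the cKit+/DDR2+/CD45+ table these barcodes had a median of 622.5 UMIs, against 12133.5 in replicate 1, so the shallower copies were left out; keeping them changed no count of members below. Libraries also stood apart by Xist, the RNA of the inactive X chromosome, which was at 757 CPM in cKit+/DDR2+/CD45-, at 496 CPM in cKit+/DDR2- replicate 2 and at most at 0.0671 CPM in the other 3. The Y-linked gene Ddx3y went the other way, at 58.7 CPM in cKit+/DDR2+/CD45+, 80.3 CPM in cKit+/DDR2- replicate 1, 98.6 CPM in cKit-/DDR2+ and 0 CPM in the 2 libraries with Xist. The libraries thus parted by the sex of the animals, and the cKit+/DDR2- replicates came from different animals of opposite sex. Gm42418 made up 10.6% of UMIs in cKit+/DDR2+/CD45-, 9.09% in replicate 2 and 0.979% to 1.39% in the remaining libraries. Cells were classed by the deposited values of Npr3 (endocardial, at least 1.5), Prox1 (lymphatic), Cdh5 alone (other endothelial), Pdgfra (fibroblast), C1qa (macrophage, at least 3) and Xcr1 (dendritic). Of the markers fixed for each class, all were detected in it, in every library with at least 20 cells of the class. Detection alone does not part the classes. All 6 endocardial markers were also detected in fibroblasts, dendritic cells and other endothelial cells of replicate 2. Its other endothelial cells held 1751 CPM of these markers. The same class had 909 CPM in replicate 1 and 513 CPM for cKit+/DDR2+/CD45-. It had 198 CPM for cKit-/DDR2+. How this uneven marker content bears on comparisons with that class was not tested. Cells that met 2 rules were kept apart as possible doublets. Fewer cells of a kind and less RNA per cell cannot be told apart in such sums.

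Dendritic cells and macrophages held most class II transcripts where the sort admitted them. In dendritic cells of cKit+/DDR2- replicate 2 (210 cells) H2-Aa stood at 9589 CPM, H2-Ab1 at 8780 CPM and Cd74 at 20080 CPM. Macrophages had 4794 CPM of H2-Aa in cKit+/DDR2+/CD45+ (3203 cells), 7907 CPM in cKit+/DDR2- replicate 1 (22 cells) and 4014 CPM in replicate 2 (482 cells). Cd74 in macrophages was at 13623, 20804 and 11985 CPM in the same 3 libraries. The dendritic cells thus lay above the replicate 2 macrophages for the I-A chains and the invariant chain, and the small group of replicate 1 macrophages above the other macrophages.

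**Figure D1:**
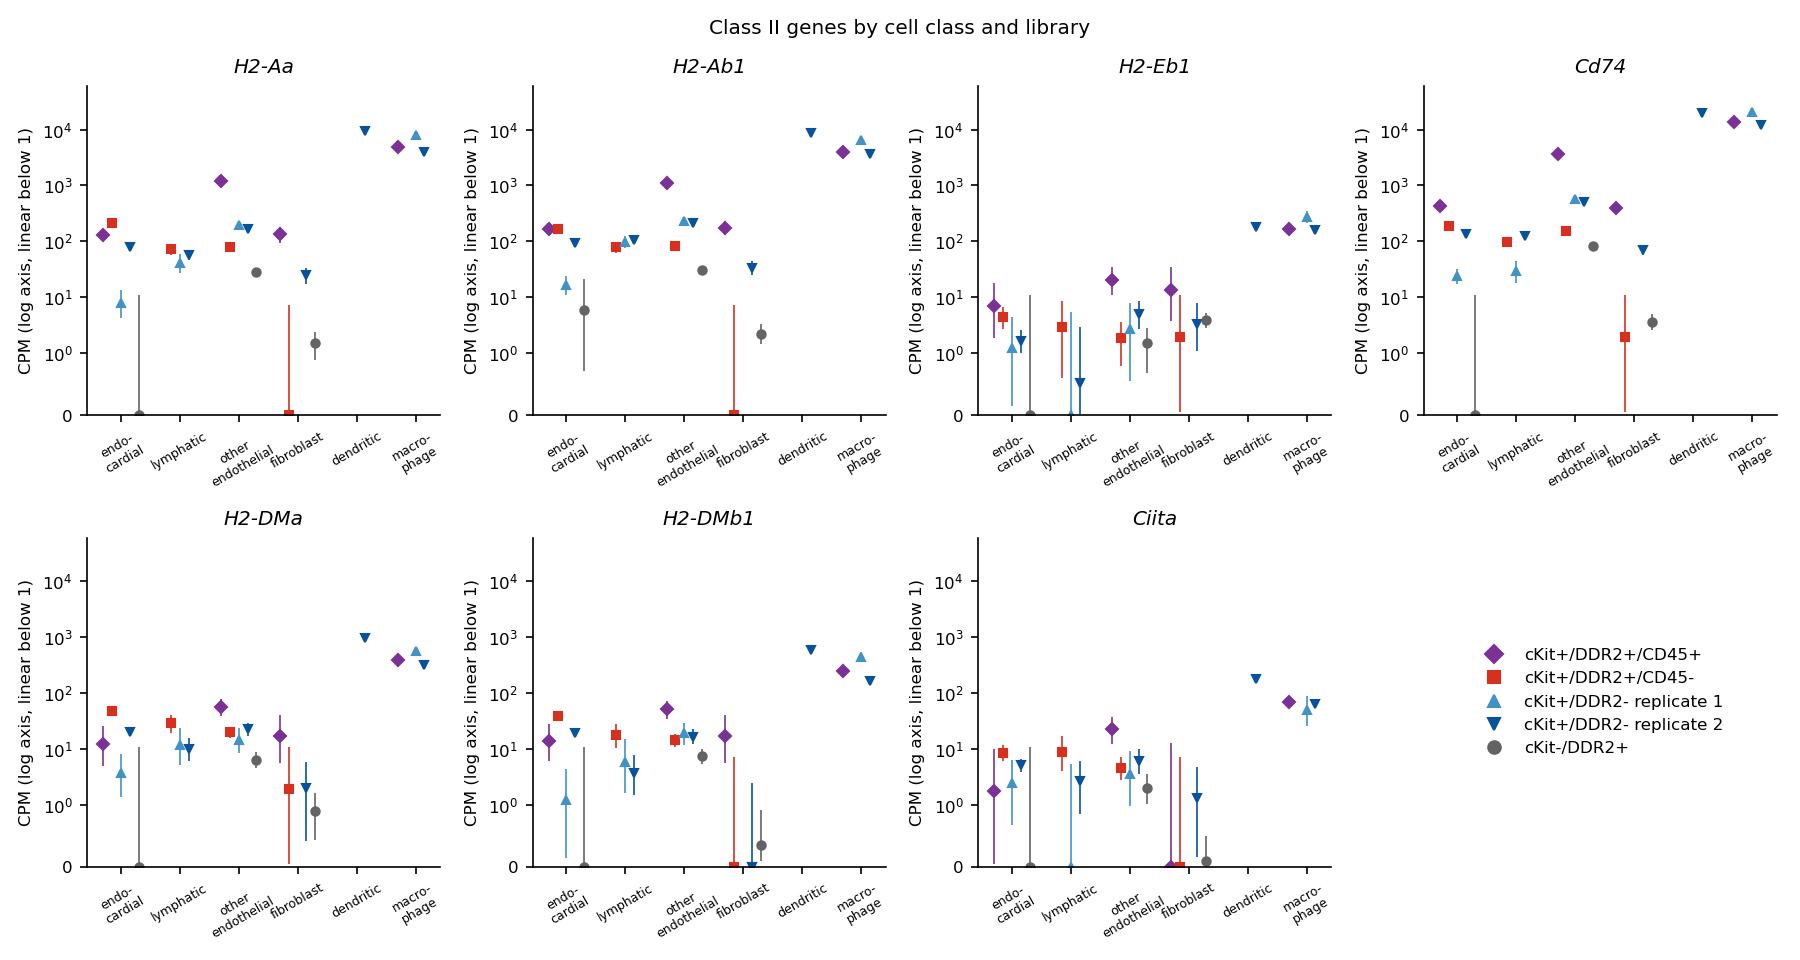
CPM of the 7 genes (log axis, linear below 1) in 6 cell classes, one symbol per library with at least 20 cells of the class, bars 95% Poisson intervals. Macrophages and dendritic cells stand highest in each panel, at 4014 to 9589 CPM for H2-Aa, and cKit-/DDR2+ fibroblasts are near 1 to 4 CPM for H2-Aa, H2-Ab1, H2-Eb1 and Cd74.

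Set against the macrophages of the same library (cKit+/DDR2- replicate 2), dendritic cells had higher levels of all 7 members, and 5 of the 7 were called. The rule called a gene where 1 side reached 50 CPM and the sides differed at least 2-fold, and 9.05% of 3049 genes were called higher and 19.4% lower in dendritic cells. H2-DMb1 was at 572 CPM in dendritic cells, against 163 CPM in macrophages, a log2 ratio of 1.80 (95% interval 1.69 to 1.93, after adding 1 CPM to each side). H2-DMa was at 939 CPM against 321 CPM (1.55), and Ciita at 177 CPM against 62.9 CPM (1.48). H2-Aa and H2-Ab1 had log2 ratios of 1.26 and 1.27. Cd74 differed by 0.74 and H2-Eb1, at 177 CPM against 158 CPM, by 0.17, and neither was called. The median of the 7 was 1.27, beside -0.22 over all genes tested.

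Among the other genes of the pathway, H2-Oa and H2-Ob, the chains of the DO inhibitor of DM, had log2 ratios of 5.26 and 3.43 in dendritic cells over macrophages. The lysosomal proteases legumain (Lgmn) and cathepsin L (Ctsl), which process antigen and the invariant chain, stood at -5.66 and -3.43. Of 7 accessory genes that reached 50 CPM, 3 were called higher and 3 lower. Of 11 class I genes, 4 were higher and 0 lower, among them Psmb9, an immunoproteasome subunit, at 2.40, and Tap1, a peptide transporter subunit, at 1.78.

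Summed over all macrophages, the levels of the cKit+/DDR2+/CD45+ sort and of cKit+/DDR2- replicate 2 were near each other. None of the 7 members was called 2-fold apart, where 0.546% of 2930 genes were called higher and 0.785% lower, and these were 2 libraries with no test. H2-Aa differed by a log2 ratio of 0.26 (0.23 to 0.28), Cd74 by 0.18 and Ciita, at 69.4 CPM against 62.9 CPM, by 0.14 (-0.03 to 0.32). H2-DMb1 had the widest gap, at 243 CPM in cKit+/DDR2+/CD45+ against 163 CPM in replicate 2 (0.57). The median of the members was 0.18, beside 0.02 over all genes tested. Among the other pathway genes the interferon-induced chemokine Cxcl10 was called lower, at 9.88 CPM in cKit+/DDR2+/CD45+ macrophages against 58.1 CPM, a log2 ratio of -2.44.

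Within the macrophages the members varied more than between the whole macrophage sums of these libraries. In cKit+/DDR2+/CD45+, cells with a UMI of Lyve1, a hyaluronan receptor of resident heart macrophages, had 12854 CPM of the 7 genes together, against 33174 CPM in cells without one. In replicate 2 the values were 6027 CPM with Lyve1 and 29004 CPM without it. Cells with the phosphatidylserine receptor Timd4 had 14797 CPM, against 33296 CPM without it, in cKit+/DDR2+/CD45+, and 10473 CPM against 25585 CPM in replicate 2. Both marks of resident macrophages therefore went with lower class II sums in both libraries.

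The folate receptor Folr2 and the chemokine receptor Ccr2, which marks macrophages derived from monocytes, parted the cells further. In cKit+/DDR2+/CD45+ the summed level was 14040 CPM in Folr2+ Ccr2- cells (1722 cells), 27505 CPM in Folr2+ Ccr2+ cells (542), 35076 CPM in Folr2- Ccr2- cells (603) and 44983 CPM in Folr2- Ccr2+ cells (336). In replicate 2 it was 6504 CPM in Folr2+ Ccr2- cells (170), 27980 CPM in Folr2- Ccr2- cells (161) and 38245 CPM in Folr2- Ccr2+ cells (111). Folr2+ Ccr2- cells made up 53.8% of the macrophages of cKit+/DDR2+/CD45+ and 35.3% of those of replicate 2. In these cells H2-Aa was at 2870 CPM against 1205 CPM, and in Folr2- Ccr2+ cells at 9495 CPM against 7876 CPM. Folr2+ Ccr2- cells were thus less alike between the libraries than the sums over all macrophages. Ciita was lowest in Folr2+ Ccr2- and highest in Folr2- Ccr2+ cells of cKit+/DDR2+/CD45+, at 41.5 and 127 CPM; in replicate 2 it was at 20.6 CPM in Folr2+ Ccr2- cells, 132 CPM in Folr2- Ccr2+ cells and 82.6 CPM in Folr2- Ccr2- cells. Median depths of the 4 subsets ran from 8215 to 12962 UMIs, and detection of a marker depends on depth. Cells with the fractalkine receptor Cx3cr1 had 24872 CPM against 16098 CPM without it in cKit+/DDR2+/CD45+, and 21202 CPM against 16789 CPM in replicate 2.

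**Figure D2:**
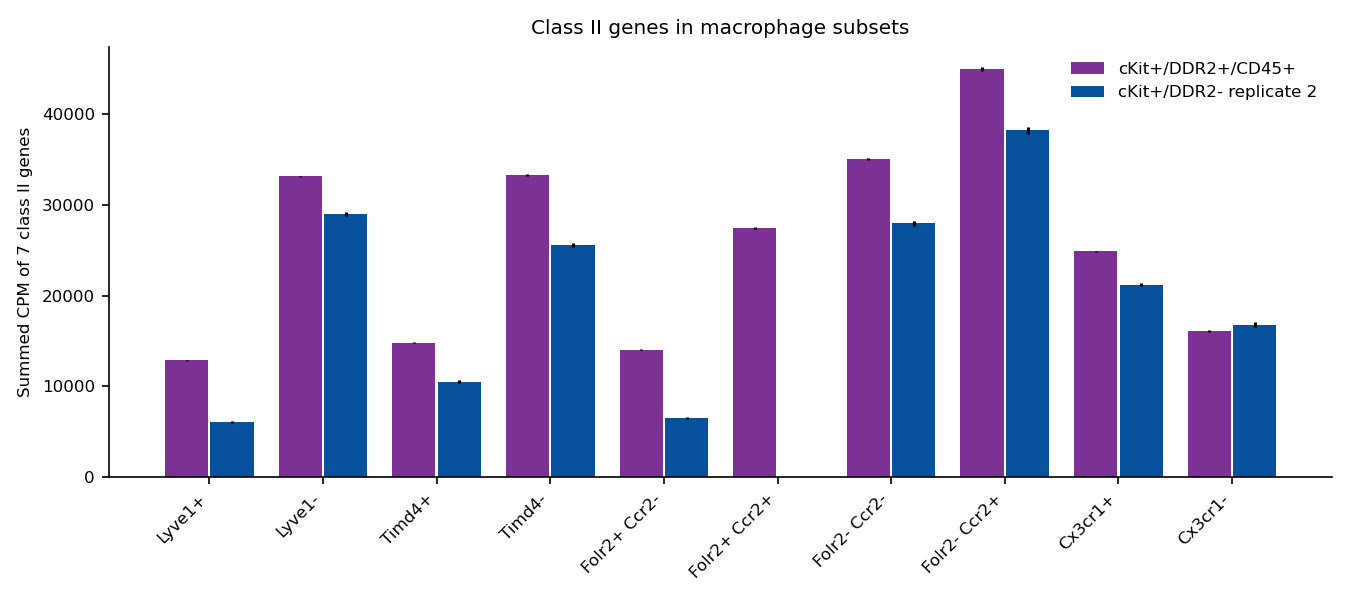
Summed CPM of the 7 class II genes in macrophages parted by a UMI of Lyve1, Timd4, Cx3cr1 or of Folr2 and Ccr2, for the libraries cKit+/DDR2+/CD45+ and cKit+/DDR2- replicate 2, with 95% Poisson intervals. Lyve1+, Timd4+ and Folr2+ Ccr2- cells are the lowest of their splits in both libraries, and Folr2- Ccr2+ cells reach 44983 and 38245 CPM. Folr2+ Ccr2+ cells numbered under 50 in replicate 2 and have no bar.

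The endocardial cells of cKit+/DDR2+/CD45- also held class II transcripts, with almost no immune transcripts beside them. H2-Aa was at 209 CPM (197 to 223) in cKit+/DDR2+/CD45- (427 cells), 7.96 CPM (4.24 to 13.6) in cKit+/DDR2- replicate 1 (147 cells), 78.8 CPM (73.7 to 84.1) in replicate 2 (1189 cells) and 0 CPM in cKit-/DDR2+ (41 cells, where a count of 0 allows up to 8.88 CPM, or 3 UMIs). Cd74 stood at 190, 23.9, 133 and 0 CPM in the same order of libraries. H2-Aa was thus highest in the cKit+/DDR2+/CD45- cells, and the intervals of the cKit+/DDR2- replicates did not overlap each other. Of 9 immune genes (C1qa, C1qb, C1qc, Lyz2, Csf1r, Ptprc, Tyrobp, Fcer1g and Laptm5) the same cells had 2.09 CPM in cKit+/DDR2+/CD45-, 36.7 CPM in replicate 1, 102 CPM in replicate 2 and 5.92 CPM in cKit-/DDR2+. The 427 endocardial cells of cKit+/DDR2+/CD45- held 10 such UMIs in all, and 4 of the 9 genes were at 0.

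The other members followed in the same cells. H2-Ab1 was at 166 CPM in cKit+/DDR2+/CD45-, 16.5 CPM in replicate 1 and 92.8 CPM in replicate 2. H2-DMa was at 48.2, 3.67 and 19.5 CPM, and H2-DMb1 at 39.0, 1.22 and 19.2 CPM, in that order. Ciita, with 41 UMIs in cKit+/DDR2+/CD45-, was at 8.55, 2.45 and 5.02 CPM, and H2-Eb1 at 4.38, 1.22 and 1.67 CPM. All 7 were highest in cKit+/DDR2+/CD45- and lowest in replicate 1 of these 3 libraries. In replicate 1 H2-Eb1 and H2-DMb1 had 2 UMIs each and Ciita 4, too few to order H2-Eb1 or Ciita between the replicates.

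Against both cKit+/DDR2- replicates, 1 of the 3 members that reached 50 CPM (H2-Aa, H2-Ab1 and Cd74) was called higher in the endocardial cells of cKit+/DDR2+/CD45-, where 0.193% of 3109 genes were called higher and 0.161% lower. The call required 2-fold in each pair of libraries. For H2-Aa the log2 ratio was 4.55 (3.94 to 5.63) over replicate 1 and 1.40 (1.28 to 1.54) over replicate 2. H2-Ab1 had 3.25 and 0.83, and Cd74 2.94 and 0.51. Without replicate 2 the count was 3 of 3, and it was 0 where cells could belong to more than 1 class or the limits on the class genes were stricter. The median over these members was 1.59, beside -0.05 over all genes tested; the other 4 members did not reach 50 CPM in any endothelial comparison.

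Fibroblasts, which should lack class II, served as the background. With each cell thinned to 2000 UMIs, 167 of 418 endocardial cells of cKit+/DDR2+/CD45- had a UMI of any member, against 0 of 36 fibroblasts of that library, which allows a share of up to 8.33% (3 cells); without thinning the shares were 56.2% and 8.11%, at median depths of 11346 and 14157 UMIs. In cKit+/DDR2- replicate 2 the thinned share was 38.1% of endocardial cells, against 21.5% of fibroblasts, and the unthinned shares were 81.1% and 71.5% at 9720 and 10607 UMIs. Most of that background was Cd74, seen at the thinned depth in 18.6% of the endocardial cells and 16.3% of the fibroblasts. H2-Aa was seen in 12.2% and 1.48%. In the cKit-/DDR2+ library the thinned shares were 2.70% of endocardial cells and 1.54% of fibroblasts.

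Summed levels of H2-Aa, H2-Ab1 and Cd74 gave the same order over fibroblasts in cKit+/DDR2+/CD45- and cKit+/DDR2- replicate 2. H2-Eb1 did not in replicate 2, at 1.67 CPM in endocardial cells against 3.32 CPM in fibroblasts (-0.69, -2.46 to 0.79). In cKit-/DDR2+ H2-Aa and Cd74 were at 0 CPM in endocardial cells, against 1.52 and 3.66 CPM in fibroblasts, levels that a count of 0 there allows. H2-Aa in the endocardial cells of cKit+/DDR2+/CD45- was at least 36.0-fold higher than the 3-UMI floor of that library's fibroblasts, which had 0 UMIs of it, and H2-Ab1 at least 28.6-fold. In cKit+/DDR2- replicate 2, H2-Aa exceeded the fibroblast level of 24.6 CPM by a log2 ratio of 1.64 (1.21 to 2.20), H2-DMa its 1.99 CPM by 2.78 (1.73 to 5.58) and Cd74 its 69.7 CPM by 0.92 (0.65 to 1.23). H2-DMb1 had 0 UMIs in those 137 fibroblasts, and the endocardial level was at least 9.64-fold above the floor. In cKit+/DDR2+/CD45+ endocardial cells (49) H2-Aa was at 131 CPM, against 133 CPM in fibroblasts (20), a log2 ratio of -0.03 (-0.60 to 0.57), so those values are at the background.

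**Figure D3:**
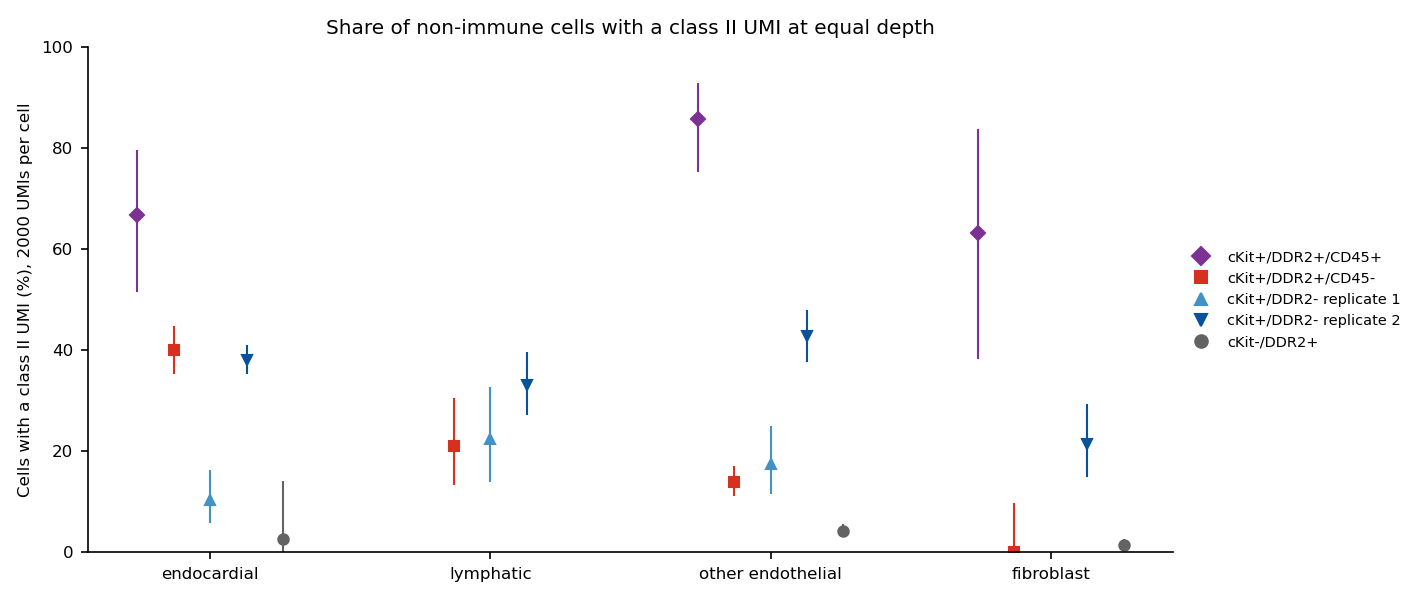
Share of cells with a UMI of any of the 7 genes after thinning each cell to 2000 UMIs, for 4 non-immune classes and each library with at least 20 cells, bars 95% Clopper-Pearson intervals. The cKit+/DDR2+/CD45- endocardial cells (167 of 418) stand above the fibroblasts of that library (0 of 36), while cKit+/DDR2+/CD45+ has 63.2% of its fibroblasts.

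The members were seen in the same endocardial cells. In cKit+/DDR2+/CD45-, 200 cells had an H2-Aa UMI and 227 had none. H2-Ab1 was seen in 77.0% of the cells with H2-Aa and 7.49% of those without, Cd74 in 58.5% and 5.29%, H2-DMa in 56.0% and 3.52%, and Ciita in 11.5% and 2.20%. In replicate 2 the contrast was smaller, with H2-Ab1 in 54.3% of 431 cells with H2-Aa and 33.2% of 758 without, and Cd74 in 63.6% and 51.2%. In the fibroblasts of replicate 2 Cd74 was seen in 48.4% of cells with H2-Aa and 48.1% of those without. Deeper cells have more of every gene, and these shares are not thinned.

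The cells with class II UMIs carried more interferon-induced and class I transcripts. In cKit+/DDR2+/CD45- endocardial cells, 186 cells with at least 3 member UMIs (median depth 11615) were set against 187 cells with 0 (11086), and 54 cells with 1 or 2 lay between. With the members left out, 32 of 3060 genes (1.05%) were higher by 2-fold or more in the cells with class II UMIs, and 4 (0.131%) lower. The list of interferon gamma targets used here and below also held the receptor subunit Ifngr1, which is not counted as a target by its function. Of the 12 genes of that list that reached 50 CPM, 10 were higher, and of the 11 class I genes 8, with 0 lower in both. The medians were 1.24 and 1.15, beside 0.00 over all genes. The cells come from 1 library, so this has no test.

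The guanylate-binding protein gene Gbp8 was at 200 CPM in the cells with at least 3 member UMIs, against 32.2 CPM in the cells with 0, a log2 ratio of 2.60 (2.26 to 3.04). The immunity-related GTPase gene Iigp1 was at 703 CPM against 142 CPM (2.30). B2m, the light chain of class I, was at 4257 CPM against 1912 CPM (1.15). Near equal were the receptor subunit Ifngr1, at 118 CPM against 115 CPM (0.04), and Ctsl (-0.14), which is of the class II accessory list. C1qa had 1 UMI in the cells with at least 3 member UMIs and 0 in the others.

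In replicate 2 the split gave 447 endocardial cells with at least 3 member UMIs, 225 with 0 and 517 between. Here 7 of 3073 genes (0.228%) were higher by 2-fold or more and 1 (0.0325%) lower. Of 12 interferon gamma targets 5 were higher and 0 lower (median 0.94), and of 11 class I genes 0 (median 0.58). Gbp8 was at 73.1 CPM against 28.0 CPM (1.36). Cxcl10 was at 53.9 CPM against 2.59 CPM (3.94), while in cKit+/DDR2+/CD45- it was at 5.84 CPM against 11.6 CPM (-0.88, -2.09 to 0.05). C1qa had a log2 ratio of 0.06. In other endothelial cells of cKit+/DDR2+/CD45-, 72 cells with at least 3 member UMIs were deeper than the 473 cells with 0 (48 lay between), and 5.51% of 3409 genes were higher and 3.4% lower; 4 of 13 interferon gamma targets and 1 of 11 class I genes were higher, Gbp8 by 2.48.

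**Figure D4:**
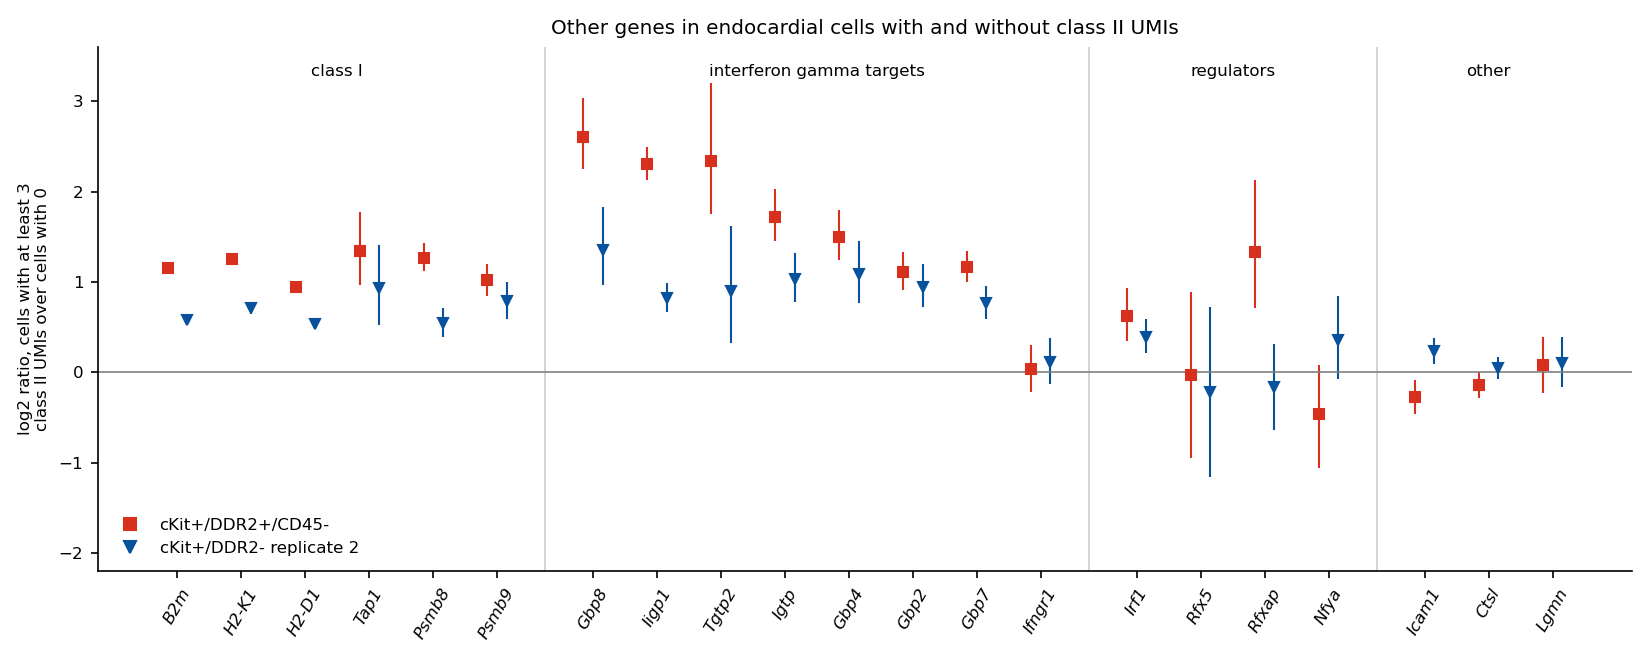
Log2 ratio of CPM between endocardial cells with at least 3 class II UMIs and those with 0, for genes of the pathway lists, in cKit+/DDR2+/CD45- and in cKit+/DDR2- replicate 2, bars 95% counting intervals. The ratios of Gbp8 and Iigp1 are 2.60 and 2.30 in cKit+/DDR2+/CD45-, and Ifngr1, Ctsl and Lgmn are near 0.

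Across these 4 libraries, class II, interferon-induced and class I levels of the endocardial cells were highest in cKit+/DDR2+/CD45- and next highest in cKit+/DDR2- replicate 2. The 16 genes of the interferon gamma target list summed to 1880 CPM in cKit+/DDR2+/CD45-, 509 CPM in cKit+/DDR2- replicate 1, 1167 CPM in replicate 2 and 595 CPM in cKit-/DDR2+. Iigp1 was at 414, 49.0, 248 and 62.1 CPM, and B2m at 3089, 1031, 2156 and 793 CPM, in that order. The 2 libraries with more of these genes are those from female animals, with Xist and more Gm42418. For cKit+/DDR2+/CD45- against replicate 1 and cKit-/DDR2+, the sort, the sex and the library cannot be told apart. Against replicate 2 the sex is the same, and the sort and the library cannot be told apart. Whether any of them bears on the class II levels was not tested. Against both cKit+/DDR2- replicates 1 of 11 interferon gamma targets that reached 50 CPM was called higher in endocardial cells (Gbp8, log2 ratio 2.07), and 0 of 11 class I genes.

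In other endothelial cells, those with Cdh5 and without Npr3 or Prox1 at the limits, the summed levels rested on few cells. H2-Aa was at 80.0 CPM in cKit+/DDR2+/CD45- (593 cells), 198 CPM in cKit+/DDR2- replicate 1 (143), 163 CPM in replicate 2 (382) and 28.7 CPM in cKit-/DDR2+ (1098). Cd74 was at 153, 570, 499 and 83.6 CPM. Cells with at least 100 member UMIs numbered 1, 1, 2 and 1 in those libraries, and held 9.20%, 91.8%, 55.6% and 81.8% of the class II UMIs of the class. They carried 0, 188, 103 and 367 UMIs of the 9 immune genes. Without them H2-Aa stood at 74.1, 15.7, 77.8 and 4.99 CPM and Cd74 at 137, 40.8, 190 and 9.97 CPM.

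For cKit+/DDR2+/CD45- against cKit-/DDR2+, 2 of the 3 members that reached 50 CPM were called higher in other endothelial cells, where 1.24% of 3379 genes were called higher and 1.54% lower. The log2 ratio of H2-Aa was 1.45 (1.21 to 1.75), of H2-Ab1 1.42 (1.19 to 1.72), and of Cd74, which was not called, 0.86 (0.70 to 1.04). The median of these was 1.42, beside -0.10 over all genes tested. Without cells of at least 100 member UMIs the ratios were 3.65, 3.10 and 3.66, and all 3 were called. Ciita, with 20 UMIs against 12, was at 4.61 CPM in cKit+/DDR2+/CD45- against 1.99 CPM in cKit-/DDR2+ (0.91, 0.11 to 2.38).

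The interferon gamma targets differed on the same side in that comparison. Of 11 that reached 50 CPM, 10 were called higher in cKit+/DDR2+/CD45- and 0 lower, with a median log2 ratio of 1.63. The chemokine gene Cxcl9 was at 118 CPM against 11.1 CPM (3.30), and Iigp1 at 488 CPM against 72.4 CPM (2.74). Of 11 class I genes 3 were higher, Tap1 by 1.34, B2m by 1.25 and Psmb8 by 1.04. Cd274, which encodes the checkpoint ligand PD-L1, was higher by 1.44. The 2 libraries also differ in the sex of the animals by Xist and Ddx3y, and its part was not tested.

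For cKit+/DDR2+/CD45- against both cKit+/DDR2- replicates, 3 of the 3 members were called lower in other endothelial cells, where 0.91% of 3297 genes were called lower and 0.212% higher. H2-Aa had log2 ratios of -1.30 over replicate 1 and -1.02 over replicate 2, H2-Ab1 -1.49 and -1.36, and Cd74 -1.89 and -1.70. Without cells of at least 100 member UMIs, 0 of the 3 were called and the mean ratios turned to 0.65 for H2-Aa, 0.13 for H2-Ab1 and 0.25 for Cd74. Without them the replicates lay on opposite sides of cKit+/DDR2+/CD45-. H2-Aa was then at 74.1 CPM in cKit+/DDR2+/CD45-, against 15.7 CPM in replicate 1 and 77.8 CPM in replicate 2, H2-Ab1 at 74.4 CPM against 24.1 and 112 CPM, and Cd74 at 137 CPM against 40.8 and 190 CPM. The direction over replicate 1 thus turned with 1 cell, while the values stayed below those of replicate 2, by less than 2-fold and for H2-Aa by the smallest margin. Shares of cells at 2000 UMIs were 13.9% in cKit+/DDR2+/CD45-, 17.5% in replicate 1, 42.8% in replicate 2 and 4.15% in cKit-/DDR2+, and 20.2%, 35.0%, 72.0% and 7.29% without thinning. The 9 immune genes stood at 4.87 CPM in cKit+/DDR2+/CD45-, 52.8 CPM in replicate 1, 116 CPM in replicate 2 and 37.2 CPM in cKit-/DDR2+ in the cells left, and their part was not tested.

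Endocardial and other endothelial cells of 1 library gave no called member, since the libraries went opposite ways; 5.76% of 3488 genes were called higher in endocardial cells and 7.57% lower. In cKit+/DDR2+/CD45- H2-Aa was higher in endocardial than in other endothelial cells, by a log2 ratio of 1.38 (1.21 to 1.57), H2-DMa by 1.24 and H2-DMb1 by 1.39. Cd74 differed by 0.31 (0.17 to 0.46). In the cKit+/DDR2- replicates H2-Aa was lower in endocardial cells, by -4.47 and -1.04, and without the cells of at least 100 member UMIs stood at 7.96 CPM against 15.7 CPM in replicate 1 and 71.1 CPM against 77.8 CPM in replicate 2. In the list of interferon gamma targets, 1 gene was called higher in endocardial cells, Gbp8 (2.38), and 2 lower, Cxcl9 (-4.28) and the receptor subunit Ifngr1 (-1.11).

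Lymphatic cells had less H2-Aa and Cd74 than endocardial and other endothelial cells in cKit+/DDR2+/CD45- and replicate 2, and lay between them in replicate 1, though the intervals overlapped for H2-Aa against other endothelial cells of cKit+/DDR2+/CD45- and for Cd74 against endocardial cells of both replicates. The place in replicate 1 turned with 1 other endothelial cell of at least 100 member UMIs. Without that cell, other endothelial cells of replicate 1 had 15.7 CPM of H2-Aa, below the lymphatic cells, and 40.8 CPM of Cd74, above them. H2-Aa was at 71.7 CPM in cKit+/DDR2+/CD45- (95 cells), 41.0 CPM in replicate 1 (88) and 57.2 CPM in replicate 2 (240), and H2-Ab1 at 78.5, 98.2 and 106 CPM. Cd74 was at 97.2, 29.3 and 124 CPM. None of the 3 members that reached 50 CPM was called against the cKit+/DDR2- replicates, where 1.24% of 3620 genes were called higher and 0.331% lower in cKit+/DDR2+/CD45-. The ratios of H2-Aa were 0.79 and 0.32 and those of H2-Ab1 -0.32 and -0.43. The 9 Ciita UMIs of cKit+/DDR2+/CD45- lymphatic cells were all in 1 cell.

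Of the same members 0 of 3 were called between lymphatic and other endothelial cells, where 8.63% of 3718 genes were higher and 5.24% lower in lymphatic cells. In cKit+/DDR2+/CD45- H2-Aa differed by -0.16 (-0.54 to 0.21) and Cd74 by -0.64. In the replicates Cd74 differed by -4.24 and -2.00, against other endothelial sums that rest on the 1 and 2 cells named above. Among the class I genes, Tap1 (-1.70), the class I heavy chain H2-Q4 (-1.51) and B2m (-1.20) were called lower in lymphatic cells, and Lgmn was called higher (1.76).

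Fibroblasts held few class II UMIs in the cKit+/DDR2+/CD45- library, and likewise in cKit-/DDR2+. The 37 fibroblasts of cKit+/DDR2+/CD45- held 3 member UMIs, 1 each of H2-Eb1, Cd74 and H2-DMa. The 785 fibroblasts of cKit-/DDR2+ had 1.52 CPM of H2-Aa, 2.23 CPM of H2-Ab1, 3.66 CPM of Cd74 and 0.0893 CPM of Ciita, a single UMI. H2-Eb1 stood at 3.93 CPM (2.86 to 5.28) in these cells and in 5.22% of them, so its ratio to H2-Aa was 2.59, against 0.0209 in the endocardial cells of cKit+/DDR2+/CD45-.

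The proportions among members differed between classes. Each H2-Aa UMI was matched by 0.907 (0.829 to 0.993) Cd74 UMIs in the endocardial cells of cKit+/DDR2+/CD45-, by 1.57 to 6.13 (the 95% interval) in those of replicate 1, where H2-Aa had 13 and Cd74 39 UMIs, and by 1.69 (1.56 to 1.84) in those of replicate 2. In macrophages the ratio was 2.84 in cKit+/DDR2+/CD45+, 2.63 in replicate 1 and 2.99 in replicate 2, in dendritic cells of replicate 2 it was 2.09, and in fibroblasts of replicate 2, read as background, 2.84 (1.93 to 4.25). The intervals of cKit+/DDR2+/CD45- and replicate 2 endocardial cells do not reach those of the macrophages or of the replicate 2 fibroblasts, while that of replicate 1 does. A low Cd74 ratio was not particular to endocardial cells. In lymphatic cells it was 1.36 (0.992 to 1.86) in cKit+/DDR2+/CD45-, 0.714 (0.381 to 1.31) in replicate 1 and 2.17 in replicate 2. In other endothelial cells it was 1.91 (1.67 to 2.18), 2.88 and 3.06 in the same order of libraries. H2-DMa UMIs per H2-Aa UMI were 0.230 and 0.248 in endocardial cells of cKit+/DDR2+/CD45- and replicate 2, against 0.0817 and 0.0800 in macrophages of cKit+/DDR2+/CD45+ and replicate 2. This was not particular to endocardial cells either. In cKit+/DDR2+/CD45- and replicate 2 the H2-DMa ratio was 0.248 and 0.139 in other endothelial cells and 0.397 and 0.174 in lymphatic cells. The 7 members together had 319 (173 to 666) UMIs per UMI of the 9 immune genes in the endocardial cells of cKit+/DDR2+/CD45-, and 3.42 in those of replicate 2. In the same replicate 2 they had 14.0 in dendritic cells, 0.741 in macrophages and 1.57 in fibroblasts, so its endocardial cells lay between the immune classes.

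**Figure D5:**
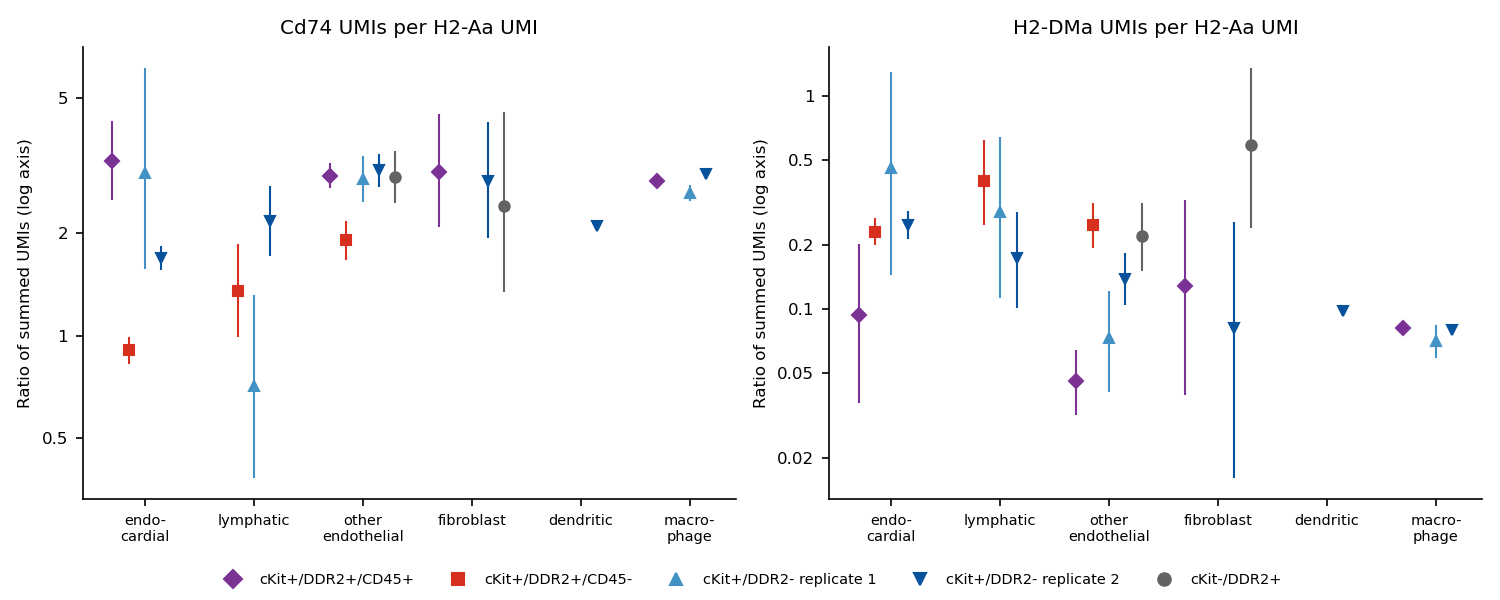
UMIs of Cd74 (left) and of H2-DMa (right) per UMI of H2-Aa in each class and library with at least 10 H2-Aa UMIs, on log axes with 95% counting intervals. Cd74 per H2-Aa is 0.907 in endocardial, 1.36 in lymphatic and 1.91 in other endothelial cells of cKit+/DDR2+/CD45-, and between 2.63 and 2.99 in macrophages. H2-DMa per H2-Aa is higher in endocardial, other endothelial and lymphatic cells of cKit+/DDR2+/CD45- and replicate 2 than in macrophages.

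Over 16 sums of at least 50 cells of a class in a library, those of 5403 genes most like Cd74 by Pearson r of log2(CPM + 1) were H2-DMb2 (0.939) and Snx20 (0.939), and those most like Ciita were Batf3 (0.947) and Cadm1 (0.943). Over the 11 endothelial sums the genes nearest to Cd74, H2-Ab1 and Ciita were Azi2 (0.900), Cd68 (0.863) and Eif3e (0.850). Among other endothelial cells of replicate 1, the cell with at least 100 member UMIs held 91.8% of the class II UMIs. Such cells held 55.6% in replicate 2 and 81.8% for cKit-/DDR2+, but 9.20% for cKit+/DDR2+/CD45-. Ciita had 57 UMIs in endocardial cells of replicate 2 and 0 in lymphatic cells of replicate 1. Dendritic cells reached 50 cells only in replicate 2. Ranks without those cells or that dendritic sum were not tested. Sums of 1 library share its cells, depth and background, and the H2-DMb2 sequence is so close to that of H2-DMb1 that reads may be split between them. Just inside the Npr3 limit, 29 cells of cKit+/DDR2+/CD45- (values 1.5 to 2) had 229 CPM of H2-Aa, and just outside it 34 cells (1 to 1.5) had 245 CPM. In replicate 2 the values were 47.4 CPM in 67 cells inside and 315 CPM in 60 cells outside. At the C1qa limit of cKit+/DDR2+/CD45+, 54 cells just outside (2.5 to 3) had 8634 CPM of H2-Aa. There 123 cells just inside (3 to 3.5) had 6025 CPM, both above the 4794 CPM of all its macrophages. In replicate 2, 31 cells just inside had 3821 CPM, against 4014 CPM over its macrophages.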

How the data were processed

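Per the labels, the libraries were made with the Chromium Single Cell 3' v3.1 kit. Cell Ranger, Seurat 4.0.4 and mm10 are named in the submitters' processing notes. The deposited values are, per the file contents, the natural log of 1 plus UMIs per 10000 of a cell; all values gave whole UMIs within 0.01, and UMIs were recovered from them for the sums. Members and gene lists were chosen with earlier results of these data known. Per class and library, CPM with exact Poisson intervals, Clopper-Pearson shares and log2 ratios after adding 1 CPM were computed; a called gene reached 50 CPM on 1 side and differed at least 2-fold in each pair of libraries. The call was tested on simulated data. No doublet caller was run. Of each pathway list up to 4 genes with the largest ratios are named; genes named by class II content of cells were chosen after their values were seen. Alternatives added after seeing the data were shared barcodes kept, no cells of at least 100 class II UMIs, and no cKit+/DDR2+/CD45-. 1 gene of the lists is not reported here. Promoters are RefSeq's. Python 3.11.15, numpy 2.4.6, scipy 1.17.1, pandas 2.3.3 and matplotlib 3.10.9 were used.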

Additional observations from a re-analysis of the deposited data

Results flagged for a closer look

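Endocardial minus other endothelial cells went opposite ways between libraries, and the difference between the libraries was not tested. H2-Aa had log2 ratios of 1.38 in cKit+/DDR2+/CD45-, -4.47 in cKit+/DDR2- replicate 1 and -1.04 in replicate 2. H2-Ab1 had 1.00, -3.75 and -1.19, and Cd74 0.31, -4.52 and -1.90, in that order. The negative values rest in part on the 1 and 2 other endothelial cells of at least 100 class II UMIs in the replicates. Cells that met no class rule also carried class II transcripts: those with at least 100 member UMIs had 35102 CPM of Cd74 in cKit+/DDR2+/CD45+ (94 of 151 cells) and 23687 CPM in cKit+/DDR2- replicate 2 (45 of 146 cells).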

How the results depend on the processing

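Of 90 recomputed counts of called members, 77 stayed within 1.5 times the count in the report. In endocardial cells against cKit+/DDR2-, the count of 1 was 0 where classes may overlap or the gene limits were stricter, and 2 with CPM taken without Gm42418, Lars2 and mitochondrial genes or with a minimum of 10 CPM; leaving out a replicate gave 1 to 3. In lymphatic cells the count of 0 was 2 with a minimum of 10 CPM, and 0 to 1 on leaving out a replicate. In other endothelial cells against cKit+/DDR2-, the count of 3 was 0 with the mean over cells, without cells with an immune UMI, without the deepest 5% of cells, and without cells of at least 100 class II UMIs. There the mean ratios reversed to 0.55 for H2-Aa, 0.13 for H2-Ab1 and 0.22 for Cd74 in cells without immune UMIs, to 0.20 for H2-Aa without the deepest cells, and to 0.65, 0.13 and 0.25 without cells of at least 100 class II UMIs. In cells without immune UMIs the reversal was that over replicate 1: H2-Aa was at 80.1 CPM in cKit+/DDR2+/CD45-, against 17.6 CPM in replicate 1 and 91.5 CPM in replicate 2, and Cd74 at 154 CPM against 47.0 and 217 CPM. The endocardial and the lymphatic comparison with other endothelial cells each had 3 lower without cKit+/DDR2+/CD45-, against 0 with it, and 0 to 3 over all libraries left out. Beyond what each setting removes, the cause was not tested. Of the single-gene ratios 502 kept direction and size within the interval, 121 moved and 7 reversed. Leaving out replicate 2 of the macrophage and dendritic comparisons, and cKit+/DDR2+/CD45- where it is one side, was not possible. No paired analysis was possible because the sorts share fewer than 2 replicate numbers; classes compared within libraries are given library by library, with no test.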

Other observations

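Cells of cKit+/DDR2+/CD45+ that met no class rule and had at least 100 class II UMIs (94 cells) carried markers of both type 2 dendritic cells and macrophages. Cd209a was seen in 83.0% of them and Clec10a in 94.7%, and Ptprc in 100%, with H2-Aa at 12839 CPM and Ciita at 205 CPM. Of the macrophage genes, Lyz2 was seen in 100% (7518 CPM), C1qb in 97.9%, C1qc in 92.6%, Csf1r in 93.6% and Adgre1 in 67.0%. C1qa was seen in 96.8%, at 477 CPM and under the macrophage limit. In cKit+/DDR2- replicate 2 the 45 such cells had Cd209a in 53.3%, Clec10a in 77.8% and C1qa in 33.3%. Cells of no class held 9.65% of the class II UMIs of cKit+/DDR2+/CD45+ and 10.5% of those of replicate 2.

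In the CD45-depleted sort, 46.5% of the class II UMIs were in endocardial cells, 22.5% in other endothelial cells and 13.8% in cells that met 2 rules. The library held 1 macrophage, whose 854 member UMIs of 11956 UMIs were 12.5% of the total. In replicate 2, dendritic cells held 49.3% and macrophages 30.4%.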
